A study of Saccharomyces paradoxus and Saccharomyces cerevisiae and Nakaseomyces glabratus with 58 samples.

Results

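The enzymes that build amino acids in yeast were followed through mutants of the transcription regulator Sfp1 in 6 species. The set was defined by 55 genes of Saccharomyces cerevisiae that encode enzymes of 10 pathways: branched-chain, threonine, aromatic, histidine, lysine, arginine, proline, glutamate, asparagine and serine synthesis. In the other species the members were the genes placed in the same orthologous group by the deposited orthology table. This gave 314 member genes among 36369 genes of the count tables: 55 of 6717 in S. cerevisiae, 53 of 6038 in Saccharomyces paradoxus, 55 of 5461 in Candida glabrata, 57 of 5926 in Naumovozyma castellii, 41 of 5318 in Kluyveromyces lactis and 53 of 6909 in Schizosaccharomyces pombe. Of these, 5 had counts too low to test: the ARG3 and a LYS20/LYS21 gene of C. glabrata, an ARO8/ARO9 and a LYS20/LYS21 gene of N. castellii, and an ARO8/ARO9 gene of K. lactis. Members without a gene in a species' table were not analysed there: ILV3, GLN1 and HIS4 in S. paradoxus, ARG7 in S. pombe, and GLT1, ARO2, LYS12, ARG8, TRP4, THR1, LYS1, SER2, GLN1, TRP5, ILV1 and TRP2 in K. lactis.

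Polyadenylated RNA was sequenced from 57 samples in 19 groups of 3 replicates. The groups in log phase were S. cerevisiae with sfp1 deleted, with HA tagged Sfp1, and wild type; S. paradoxus, K. lactis and S. pombe with sfp1 deleted, and wild type; C. glabrata with CAGL0M09955g or CAGL0D00682g deleted, and wild type; and N. castellii with Scas551.1 or Scas719.24 deleted, and wild type. C. glabrata and N. castellii carry a pair of SFP1 paralogs, and each mutant lacks a single member of the pair. In S. paradoxus the deletion and the wild type were also sampled in lag phase, 30 and 60 min after glucose was given back. Every culture is marked BMW, with no further account of the medium, and the labels give no strain backgrounds. They also do not say whether replicates were separate cultures, so p-values measure only the spread between these samples. In bulk samples, fewer cells of a kind and less RNA per cell cannot be told apart.

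Sfp1 is a zinc-finger protein that in S. cerevisiae activates genes for ribosomal proteins and ribosome assembly when nutrients are plentiful. Amino acid enzymes are the other side of protein synthesis: they supply the building blocks that ribosomes use. In S. cerevisiae most of these enzyme genes are under general amino acid control, in which Gcn4 binds the sequence TGACTCA upstream of them when cells are starved of amino acids. Branched-chain genes have in addition the regulator Leu3, which senses a leucine intermediate. Arginine genes are held down by the ArgR complex when arginine is present, and CPA1 is in addition controlled through an upstream open reading frame. Carbon skeletons come from glycolysis, the pentose phosphate pathway and the TCA cycle, and most nitrogen enters through glutamate and glutamine.

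Levels are given in CPM, counts relative to library size, after the libraries had been scaled to each other by the TMM method. Changes are log2 fold changes of mutant over wild type with their standard error. A gene was called higher or lower when its p from edgeR's quasi-likelihood test, with Benjamini-Hochberg adjustment over all genes tested in the species, was below 0.05. Total counts per library lay between 1360916 and 3447874 for every log-phase group outside S. pombe, and between 712972 and 2252092 for S. pombe. The lag-phase libraries of S. paradoxus held 418292 to 640282 counts, except the deletion at 30 min replicate A with 34081. With reads of 25 bases, those from near-identical gene pairs such as ASN1 and ASN2 could be split between both, so values of single paralogs are uncertain.

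The targeted gene was checked before the members were compared. SFP1 was at 0 CPM in the 3 S. cerevisiae deletion libraries, against 75.1, 87.6 and 81.2 CPM in wild type. It was likewise at 0 in the K. lactis deletion, at 0.429 CPM or less in the S. paradoxus deletion, and each labelled C. glabrata paralog was at 0 in its own deletion. In N. castellii the gene NCAS0A02570 was at 1.47, 0 and 1.12 CPM in the Scas551.1 deletion and NCAS0J01590 at 0 in the Scas719.24 deletion. These genes of the SFP1 orthologous group were assigned to the labels only by their levels in the deletion libraries, so the values are no check of the labels. The S. pombe gene SPAC16.05c still had 45.6, 45.4 and 30.4 CPM in the libraries labelled sfp1 deletion, against 90.7, 64.6 and 71.4 CPM in wild type, so every S. pombe value below compares the libraries as labelled. Mating-type genes also differed within species. The alpha-pheromone receptor gene STE2 had 11.6, 13.5 and 16.3 CPM in the S. paradoxus deletion in log phase, against 615, 643 and 604 CPM in wild type, while at both lag times deletion and wild type expressed the a-pheromone receptor gene STE3 (385 to 623 CPM against 289 to 387 CPM). In N. castellii STE3 was at 2.25 CPM or less in both deletions and at 62 to 67.2 CPM in wild type. The S. paradoxus log-phase and the N. castellii comparisons therefore set strains against each other that differ in mating-type expression as well as in SFP1. The effects of these differences on the enzymes cannot be told apart. Smaller differences were present elsewhere. In the S. paradoxus deletion at 30 min, 6 of 8 a genes and 4 of 4 alpha genes were higher and 1 a gene lower (28.3% of all genes were higher and 24.6% lower). At 60 min 4 of 8 a genes and 4 of 4 alpha genes were higher and 1 a gene lower (25.7% and 25.0% of all genes). In S. cerevisiae 3 of 5 a genes were lower and 2 of 3 tested alpha genes higher (26.0% of all genes were lower and 26.0% higher), and in K. lactis STE3 was higher (1.41 ± 0.14). Their part in the enzyme changes was not tested. LEU2, the leucine enzyme isopropylmalate dehydrogenase, had a count of 0 in all 9 S. cerevisiae libraries, mutant, tagged and wild type alike, which allows up to 3 counts in each.

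Upstream sequences of members described below are shown because the same Gcn4 motif sits before genes that moved in different directions, while the 5 genes with a Leu3 motif shown were all lower in the S. cerevisiae deletion. The first 6 hold the Gcn4 motif TGACTCA and the last 5 the Leu3 motif CCGGNNCCGG. Capitals mark the motif, and positions are on the R64 build of the S. cerevisiae genome. All are read 5′ to 3′ on the coding strand of the gene, and the distance is in bases from the motif to the start codon.
CPA1, chrXV:882405-882431, plus strand, 478 bases before the start codon: gaagggtgttTGACTCAtcatcgcatc
ARG1, chrXV:218856-218882, plus strand, 339 bases before the start codon: gattttttagTGACTCAtgtcgcattt
LEU9, chrXV:522760-522786, plus strand, 251 bases before the start codon: tcgtagtgaaTGACTCAtatttttcca
ILV3, chrX:466327-466353, minus strand, 129 bases before the start codon: cctctccagaTGACTCAgtaatatagt
HIS4, chrIII:68516-68542, minus strand, 193 bases before the start codon: ccatgcacagTGACTCAcgttttttta
HOM2, chrIV:770163-770189, plus strand, 178 bases before the start codon: aagcattgatTGACTCAttttcctctg
ILV2, chrXIII:483606-483635, plus strand, 459 bases before the start codon: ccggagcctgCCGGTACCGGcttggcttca
ILV5, chrXII:839611-839640, minus strand, 368 bases before the start codon: gcggtctcctCCGGTACCGGttctgccacc
BAT1, chrVIII:517375-517404, plus strand, 138 bases before the start codon: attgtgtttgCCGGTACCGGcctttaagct
LEU1, chrVII:478850-478879, minus strand, 208 bases before the start codon: aacgaaaattCCGGGACCGGcgaaatttgc
GDH1, chrXV:1043427-1043456, minus strand, 395 bases before the start codon: aaccaatgcgCCGGAACCGGcccatgcatt

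In S. cerevisiae most of these enzymes were lower without SFP1 under TMM scaling. Of 55 members, 37 were lower and 13 higher, where 26.0% of all genes tested were lower and 26.0% higher. The share of members called higher was thus close to that of all genes, and the share called lower was well above it. The median log2 fold change was -0.33 over the members and 0.03 over all 5826 genes tested. With libraries scaled by their total count alone, there were 17 higher and 25 lower members, and the all-gene median was shifted by 0.23. Shares of all genes called, here and below, are those under TMM scaling. Splits of members under total-count scaling therefore have no all-gene share beside them. The plot of the changes by pathway shows that the direction depended on the pathway: branched-chain, threonine, aromatic, glutamate, asparagine and proline enzymes were mainly lower, and arginine enzymes mainly higher.

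**Figure D1:**
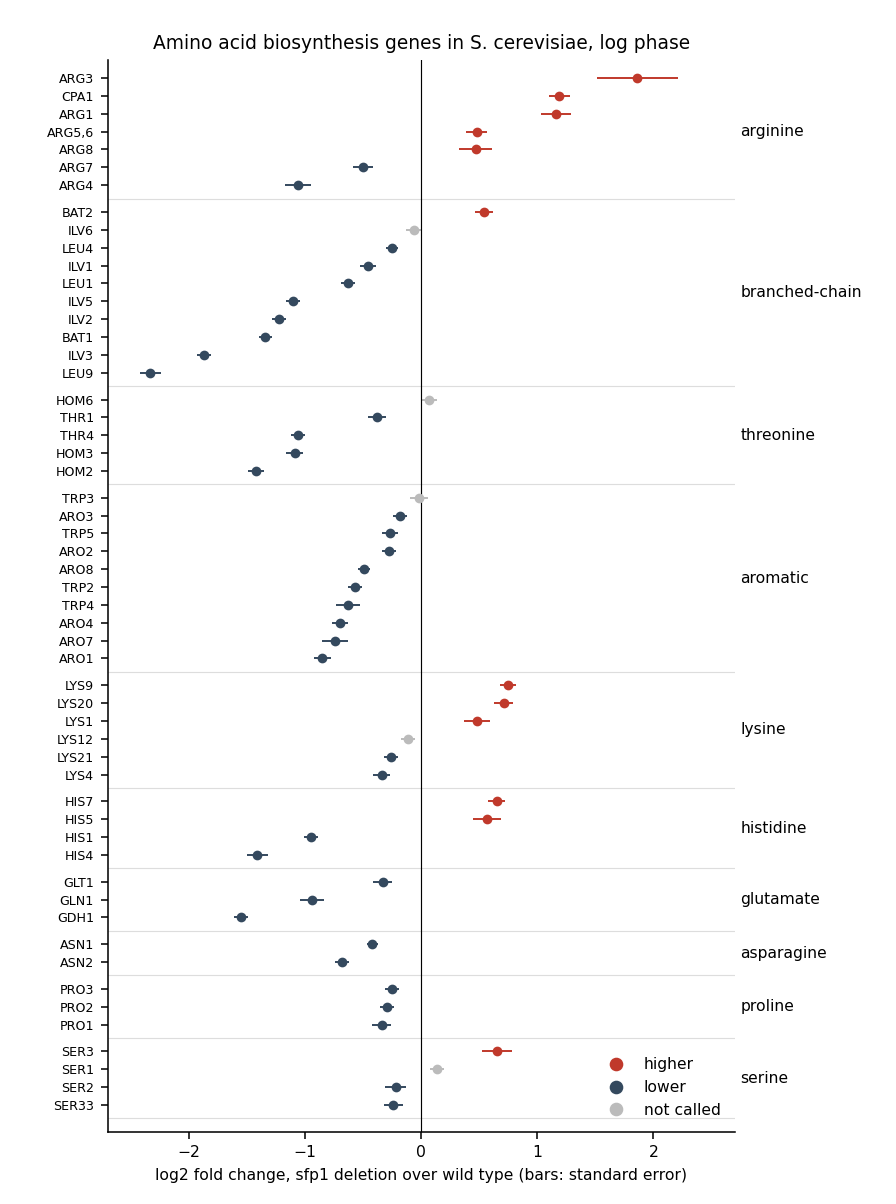
Log2 fold change (sfp1 deletion over wild type, S. cerevisiae, log phase) of 54 members, ordered by pathway, with bars of ± 1 standard error from edgeR's fit on 3 libraries a group. Red points were called higher, dark blue points lower, grey points neither; LEU9 lies lowest at -2.33 and ARG3 highest at 1.86.

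Branched-chain synthesis fell furthest in single genes, with 8 of 10 enzymes lower and 1 higher in S. cerevisiae. LEU9 (YOR108W), an isopropylmalate synthase that starts leucine synthesis, had 49.9, 63.9 and 53.3 CPM in the deletion, against 281, 294 and 260 CPM in wild type. That was a 5.01-fold lower level (-2.33 ± 0.09, adjusted p = 3.55e-12), and the groups were far apart. Its paralog LEU4 (YNL104C) differed much less, with 438, 444 and 478 CPM in the deletion and 536, 537 and 547 CPM in wild type (-0.25 ± 0.05, adjusted p = 0.00102). ILV3 (YJR016C), the dihydroxyacid dehydratase shared by valine, isoleucine and leucine synthesis, had 285, 317 and 286 CPM in the deletion, against 1068, 1102 and 1073 CPM in wild type (-1.87 ± 0.06). The enzymes around it fell too: acetolactate synthase ILV2 (-1.22 ± 0.06), the reductoisomerase ILV5 (-1.10 ± 0.06), the mitochondrial transaminase BAT1 (-1.34 ± 0.06), isopropylmalate isomerase LEU1 (-0.63 ± 0.06) and threonine deaminase ILV1 (-0.46 ± 0.07). BAT2 (YJR148W), the cytosolic transaminase that mainly serves breakdown, went the other way, with 262, 280 and 233 CPM in the deletion and 182, 162 and 190 CPM in wild type (0.54 ± 0.08, adjusted p = 2.56e-05). ILV6, the regulatory subunit of acetolactate synthase, was not called (-0.06 ± 0.07).

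Threonine synthesis fell in 4 of 5 enzymes, from the start of the pathway to its end. HOM2 (YDR158W), the aspartate semialdehyde dehydrogenase, had 205, 244 and 230 CPM in the deletion, against 638, 586 and 603 CPM in wild type (-1.42 ± 0.07, adjusted p = 4.3e-11). Aspartate kinase HOM3 had 71.8, 78.3 and 76.2 CPM in the deletion and 172, 153 and 159 CPM in wild type (-1.09 ± 0.07). Threonine synthase THR4 (-1.06 ± 0.06) and homoserine kinase THR1 (-0.38 ± 0.08) were lower as well, whereas homoserine dehydrogenase HOM6 was not called (0.07 ± 0.07) and became higher when only the total count was used for scaling, which left 4 lower and 1 higher.

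The members that bring nitrogen into amino acids were each lower. GDH1 (YOR375C), the NADP-dependent glutamate dehydrogenase that makes glutamate from ammonium, had 363, 381 and 382 CPM in the deletion and 1109, 1100 and 1080 CPM in wild type (-1.55 ± 0.06, adjusted p = 4.58e-12). Glutamine synthetase GLN1 had 329, 381 and 268 CPM in the deletion and 639, 615 and 623 CPM in wild type (-0.94 ± 0.10), and glutamate synthase GLT1 was lower by a smaller amount (-0.33 ± 0.08). The asparagine synthetases ASN1 (-0.42 ± 0.05) and ASN2 (-0.68 ± 0.06) and the proline enzymes PRO1, PRO2 and PRO3 (-0.34 ± 0.08, -0.29 ± 0.06 and -0.25 ± 0.06) fell moderately. The proline calls were lost, 0 of 3 in either direction, when only total counts were used for scaling. GDH3, the second NADP-dependent glutamate dehydrogenase and not a member, was higher by 0.72 ± 0.14.

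Aromatic synthesis was lower in 9 of 10 members, by modest amounts. The largest change was at ARO1 (YDR127W), a single protein with 5 activities of the shikimate route, with 211, 252 and 221 CPM in the deletion and 430, 388 and 421 CPM in wild type (-0.85 ± 0.07, adjusted p = 2.79e-08). Chorismate mutase ARO7 (-0.74 ± 0.11), anthranilate phosphoribosyltransferase TRP4 (-0.63 ± 0.10) and anthranilate synthase TRP2 (-0.57 ± 0.06) followed. Of the DAHP synthases that open the route, the tyrosine-inhibited ARO4 fell by 0.70 ± 0.07 on the log2 scale and the phenylalanine-inhibited ARO3 by 0.18 ± 0.06; the ARO3 value turned to 0.05 (adjusted p = 0.532) with total-count scaling. TRP3 was not called. Aromatic enzymes that are not members did not share this direction. TRP1 (0.88 ± 0.10, adjusted p = 2.04e-06) and TYR1 (0.79 ± 0.09, adjusted p = 8.21e-07) were higher, and PHA2 was not called (-0.37 ± 0.17). ARO9, an aromatic transaminase used in breakdown and also not a member, was higher by 2.31 on the log2 scale.

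Histidine enzymes divided within the pathway. HIS4 (YCL030C), which carries 3 activities of the route, had 79.7, 95.8 and 75.6 CPM in the deletion and 233, 220 and 217 CPM in wild type (-1.41 ± 0.09, adjusted p = 7.61e-10). The ATP phosphoribosyltransferase HIS1, the first step, was also lower (-0.95 ± 0.06). In the same libraries HIS7, the glutamine amidotransferase of the fifth step, had 184, 187 and 184 CPM in the deletion and 120, 114 and 121 CPM in wild type (0.65 ± 0.07), and the transaminase HIS5 was higher by 0.57 ± 0.12.

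Arginine synthesis was the pathway that rose, with 6 of 8 enzymes higher, 2 lower and a median log2 fold change of 0.47. CPA1 (YOR303W), the small subunit of the arginine-specific carbamoyl phosphate synthetase, had 142, 147 and 152 CPM in the deletion and 62.7, 64.5 and 66.3 CPM in wild type (1.19 ± 0.09, adjusted p = 6.5e-09). Argininosuccinate synthetase ARG1 had 46.4, 57.2 and 55.1 CPM in the deletion and 27.1, 24.2 and 20.8 CPM in wild type (1.16 ± 0.13). Ornithine transcarbamylase ARG3 was low throughout, at 8.16, 7.02 and 9.14 CPM in the deletion and 1.55, 2.73 and 1.96 CPM in wild type, and gave the largest ratio among the members that rose (1.86 ± 0.35, adjusted p = 0.000314). The ornithine enzymes ARG5,6 (0.48 ± 0.09) and ARG8 (0.47 ± 0.14) rose less. ARG4, the argininosuccinate lyase that follows ARG1, fell instead, with 57.7, 58.6 and 52.1 CPM in the deletion and 136, 121 and 98.4 CPM in wild type (-1.06 ± 0.11), as did the acetyltransferase ARG7 (-0.50 ± 0.09). The counts of 6 higher and 2 lower were the same under all 3 scalings of the libraries.

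Lysine and serine enzymes were mixed, and their paralogs parted. Saccharopine reductase LYS9 had 279, 298 and 278 CPM in the deletion and 152, 176 and 176 CPM in wild type (0.75 ± 0.07). Of the 2 homocitrate synthases that start lysine synthesis, LYS20 rose, with 219, 262 and 252 CPM in the deletion and 146, 156 and 144 CPM in wild type (0.71 ± 0.08), while LYS21 fell slightly (-0.26 ± 0.06, adjusted p = 0.00244). In lysine synthesis as a whole 3 of 6 members were higher and 2 lower, or 3 higher and 0 lower with total-count scaling. Of the phosphoglycerate dehydrogenases that start serine synthesis, SER3 had 56.8, 79.3 and 72.2 CPM in the deletion and 34.1, 46.0 and 47.8 CPM in wild type (0.65 ± 0.13), and SER33 was lower by 0.24 ± 0.08 on the log2 scale. The serine counts were 1 higher and 2 lower of 4, or 2 higher and 0 lower with total-count scaling.

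No member was called in either direction when Sfp1 carried the HA tag, where 0% of all genes were called. At an unadjusted p below 0.05 there were 6 of the 55 members and 318 of 5826 genes, and DESeq2 also called 0 members. The largest change among the members was at BAT2 (-0.38, adjusted p = 0.25). SFP1 itself had 89.7, 87.2 and 66.4 CPM in the tagged strain, a range that overlapped that of wild type.

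The motifs shown above were counted in the 500 bases upstream of the start codon, on both strands, over 6000 S. cerevisiae genes with such a window. These windows can reach into neighbouring genes, and a match is a stretch of letters, not a measured binding site. TGACTCA was present upstream of 31 of 55 members (56.4%) and of 4.0% of all genes. It was found at 9 of the 13 members that were higher, 20 of the 37 that were lower and 2 of the 5 not called, so members with the motif moved in both directions. CCGGNNCCGG was present upstream of 5 members (9.09%) and 0.267% of all genes, and all 5 (ILV2, ILV5, BAT1, LEU1 and GDH1) were among the 37 lower members. The Lys14 motif TCCNNNNGGA was found at 4 members (7.27%) and 7.53% of genes. The PAC letters GATGAG, common upstream of ribosome assembly genes, were found at 18 members (32.7%) and 28.2% of genes, and the RRPE letters AAAATTTT at 9 members (16.4%) and 12.4% of genes. Both shares were near those of all genes.

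The regulators and further amino acid enzymes were counted from lists chosen with earlier results of these data known. The list of enzymes also holds some outside the pathways of the members, such as SHM1, SHM2, GLY1, AGX1 and the breakdown enzyme ARO9. Of these SHM2 was lower and the rest higher, so the counts do not describe those pathways alone. Of 19 further enzymes tested in S. cerevisiae, 9 were higher and 3 lower, with a median log2 fold change of 0.26 against 0.03 over all genes. LYS2, the aminoadipate reductase of lysine synthesis, had 552, 568 and 564 CPM in the deletion and 238, 213 and 225 CPM in wild type. HIS3, of histidine synthesis, had 27.9, 27.7 and 28.3 CPM in the deletion and 49.5, 59.7 and 64.3 CPM in wild type. These counts and those of the regulators are to be read against the 26.0% of all genes that were higher and the 26.0% that were lower. Of 16 regulators, 4 were higher and 5 lower, close to those shares. GCN4 had 1002, 1123 and 1043 CPM in the deletion and 865, 877 and 882 CPM in wild type (0.27 ± 0.06, adjusted p = 0.00153), and LEU3 was higher by 0.39 ± 0.10. GCN4 is controlled mainly at translation, which RNA levels do not measure.

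S. paradoxus, the closest relative in the series, showed the same predominance of lower members in log phase. Of 53 members 36 were lower and 6 higher, where 32.6% of all genes were lower and 24.8% higher, and the median log2 fold change was -0.51 over members and -0.05 over all genes. Scaling by total counts alone moved the median of all genes by 0.50 and changed the split to 14 higher and 19 lower. The 5 threonine enzymes and both asparagine synthetase genes were lower (median log2 fold changes of -1.45 and -1.25). Aromatic synthesis had 9 of 10 genes lower, and branched-chain synthesis 8 of 9. Arginine synthesis had 3 genes higher and 2 lower of 8, or 5 higher and 0 lower with total-count scaling.

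The furthest fall in S. paradoxus was again at an isopropylmalate synthase gene. Spar_15.313, a gene of the LEU4/LEU9 group, had 31.5, 29.8 and 30.9 CPM in the deletion and 298, 212 and 248 CPM in wild type in log phase (-3.02 ± 0.12, adjusted p = 2.96e-20). The other gene of that group, Spar_14.232, was lower by only 0.47 ± 0.10 on the log2 scale, and at 0.03 (adjusted p = 0.952) with total-count scaling. Acetolactate synthase ILV2 (Spar_13.288, -2.18 ± 0.10), aspartate semialdehyde dehydrogenase HOM2 (Spar_4.465, -2.05 ± 0.10), homoisocitrate dehydrogenase LYS12 (Spar_9.86, -1.88 ± 0.26), a DAHP synthase of the ARO3/ARO4 group (Spar_2.426, -1.78 ± 0.09) and aspartate kinase HOM3 (Spar_5.193, -1.74 ± 0.12) came next. Among the higher members, CPA1 (Spar_15.512) had 153, 178 and 153 CPM in the deletion and 73.9, 103 and 70.7 CPM in wild type (0.94 ± 0.13), and ARG1 (Spar_15.119) had 220, 231 and 189 CPM in the deletion and 93.3, 150 and 74.5 CPM in wild type (0.97 ± 0.14). An aromatic transaminase of the ARO8/ARO9 group, Spar_8.229, was higher by 1.77 ± 0.14 while the other gene of that group, Spar_7.70, was lower (-0.62 ± 0.09). Similarly Spar_8.107, placed with PRO1 and YHR033W, was higher by 2.52 ± 0.23, and the second gene of that group, Spar_4.676, was lower by 0.36 ± 0.09 on the log2 scale but at 0.14 (adjusted p = 0.193) with total-count scaling. ARO9 and YHR033W are not members in S. cerevisiae, so Spar_8.229 and Spar_8.107 may match genes left out of the counts there. S. paradoxus had a single gene in the GDH1/GDH3 group, Spar_1.6, at 13.0, 25.3 and 15.0 CPM in the deletion and 24.2, 13.7 and 26.1 CPM in wild type. These ranges overlapped, and the table does not assign the gene to GDH1 or GDH3, so its values are not a measure of GDH1 in this species.

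In lag phase S. paradoxus members also lay on both sides of wild type. At 30 min 13 members were higher and 23 lower (28.3% and 24.6% of all genes), and at 60 min 9 were higher and 24 lower (25.7% and 25.0%). The 30 min count of higher members was 7 with RLE scaling, with 25 lower and a shift of -0.11 in the median of all genes, 7 without a filter on low counts, 8 by DESeq2 and 7 without the wild type at 30 min replicate B. Leaving out the shallow deletion library, replicate A at 30 min, gave 12 higher and 23 lower. At 60 min total-count scaling gave 15 higher and 18 lower, with a shift of 0.28 in the median of all genes. All 5 threonine enzymes and both asparagine synthetase genes were lower at both lag times, and arginine synthesis had 4 genes higher and 1 lower at 30 min and 4 higher and 0 lower at 60 min.

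CPA1 showed the largest excess of the deletion over wild type among the arginine genes of S. paradoxus in lag phase. At 30 min it had 1994, 2528 and 1912 CPM in the deletion and 591, 600 and 557 CPM in wild type (1.90 ± 0.12, adjusted p = 6e-15). At 60 min it had 657, 569 and 516 CPM in the deletion and 81.9, 82.9 and 62.0 CPM in wild type (2.92 ± 0.16, adjusted p = 7.97e-17). The groups did not overlap at any time, and the effect was larger by 0.96 ± 0.18 at 30 min than in log phase and by 1.02 ± 0.20 at 60 min than at 30 min (adjusted p = 8.11e-05 and 0.00048). LEU1 (Spar_7.291), isopropylmalate isomerase, changed its direction: it was lower in the deletion in log phase, at 243, 249 and 218 CPM against 297, 310 and 296 CPM in wild type (-0.35 ± 0.09). At 30 min it was higher, at 485, 521 and 447 CPM in the deletion and 289, 357 and 326 CPM in wild type (0.57 ± 0.12), and at 60 min higher still, at 468, 564 and 500 CPM in the deletion and 204, 169 and 174 CPM in wild type (1.49 ± 0.11). Spar_14.232 of the LEU4/LEU9 group also turned from lower in log phase to higher at 60 min (0.68 ± 0.14). Its 30 min value (0.36 ± 0.13, adjusted p = 0.0186) was not called with RLE scaling, by DESeq2 or without the filter.

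Other members stayed low through lag. Spar_15.313 of the LEU4/LEU9 group had 0 (in the shallow library), 14.3 and 13.4 CPM in the deletion at 30 min, where wild type had 473, 474 and 465 CPM (-5.14 ± 0.23), and 33.5, 33.1 and 23.9 CPM at 60 min, where wild type had 242, 270 and 232 CPM (-3.06 ± 0.17). HOM2 had 53.9, 64.2 and 64.9 CPM in the deletion at 30 min and 781, 701 and 740 CPM in wild type (-3.52 ± 0.16), and remained lower at 60 min (-2.55 ± 0.16). The DAHP synthase Spar_2.426 was lower by 3.66 ± 0.16 and 3.01 ± 0.13 on the log2 scale, and ILV5 by 3.17 ± 0.14 and 1.39 ± 0.11. Spar_8.107 of the PRO1/YHR033W group was higher, with 80.9, 76.1 and 93.6 CPM in the deletion at 30 min against 16.9, 5.49 and 8.31 CPM in wild type, and 201, 182 and 180 CPM at 60 min against 8.71, 6.5 and 14 CPM in wild type (4.28 ± 0.30). The paralogs of the serine start diverged: Spar_9.107 of the SER3/SER33 group was lower at both lag times (-1.12 ± 0.20 and -0.91 ± 0.18), and Spar_5.243 was higher (0.97 ± 0.17 and 0.59 ± 0.23).

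**Figure D2:**
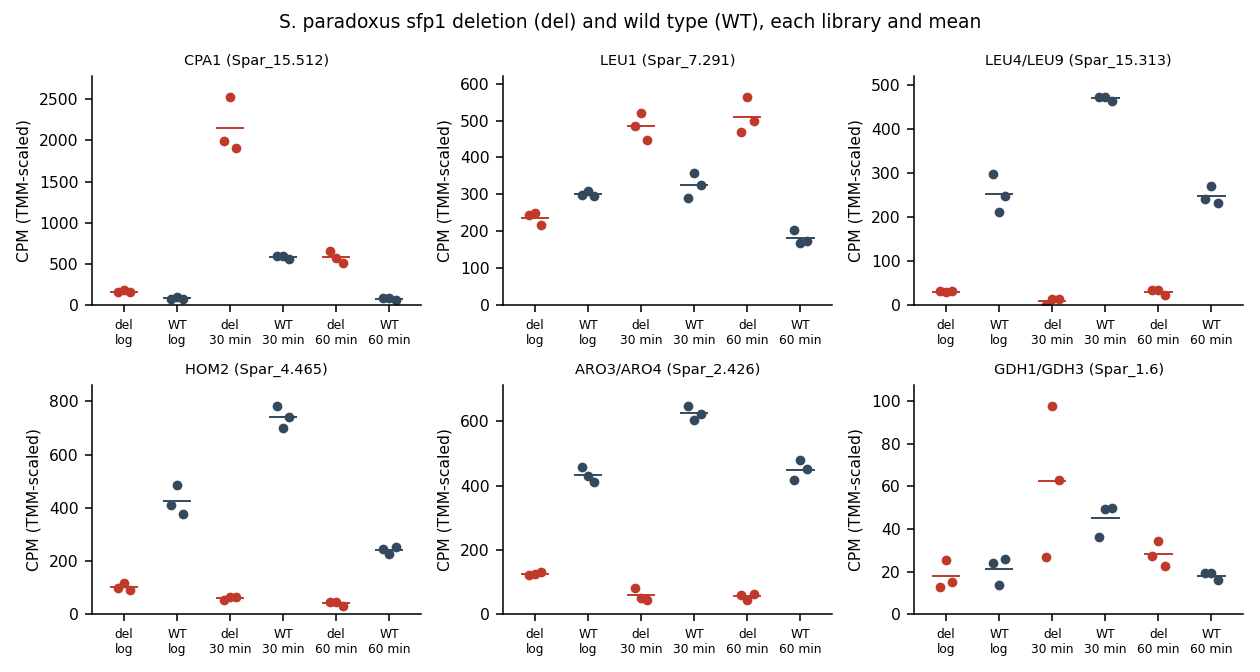
CPM of 6 S. paradoxus members in log phase and at 30 and 60 min of lag, in the sfp1 deletion and in wild type; points are the 3 libraries and short lines their mean, on a separate linear axis for each gene. CPA1 and, during lag, LEU1 lie above wild type in every deletion library, while Spar_15.313 (LEU4/LEU9), HOM2 and Spar_2.426 (ARO3/ARO4) lie below wild type at all 3 times and Spar_1.6 (GDH1/GDH3) overlaps it in log phase and at 30 min.

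These shifts were tested as differences between the deletion effects at different times. Between 30 min and log phase 27 of 53 members differed, 11 with a higher and 16 with a lower effect at 30 min, where 31.8% of all genes differed; with total-count scaling there were 4 and 23. Between 60 min and log phase 19 differed (14 higher, 5 lower), where 25.2% of all genes differed, but the split was 11 and 9 with RLE and 11 and 12 with total-count scaling. Between 60 and 30 min 14 differed (13 higher, 1 lower), where 15.3% of all genes differed, and total-count scaling gave 23 and 1. Wild type expressed STE2 in log phase and STE3 at both lag times, so the differences from log phase also set wild types of different mating-type expression against each other, and this cannot be told apart from the effect of time. For LEU1 the effect differed by 1.84 ± 0.14 between 60 min and log phase (adjusted p = 1.03e-11).

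Within wild type, 31 of 53 members were lower and 2 higher at 60 min than at 30 min, where 19.8% of all genes were lower and 16.7% higher. Within the deletion 17 were lower and 4 higher (14.7% and 7.97% of all genes), but total-count scaling turned this to 18 higher and 7 lower, with a shift of 0.42 in the median of all genes; in wild type it gave 4 higher and 25 lower. Branched-chain synthesis was lower at 60 min in 8 of 9 genes in wild type under all 3 scalings.

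In C. glabrata the members responded to the loss of CAGL0M09955g and not detectably to that of CAGL0D00682g. In the CAGL0M09955g deletion 25 of 53 tested members were lower and 8 higher (18.6% and 15.0% of all genes), with a median of -0.20 against 0.02 over all genes. Total-count scaling gave 16 higher and 15 lower, with a shift of 0.16 in the median of all genes. The higher count was 5 without deletion replicate A, 5 without wild type replicate A and 5 by DESeq2. In the CAGL0D00682g deletion no member was called (0.378% of all genes were higher and 0.189% lower); 10 members and 461 genes had an unadjusted p below 0.05, and DESeq2 also called 0 members. Compared with each other, the CAGL0M09955g deletion had 8 members higher and 24 lower than the CAGL0D00682g deletion, where 29.5% of all genes differed, or 11 higher and 10 lower with total-count scaling. CAGL0D00682g itself was higher in the CAGL0M09955g deletion (0.34 ± 0.13, adjusted p = 0.0311).

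The C. glabrata changes were smaller than 1 on the log2 scale. A DAHP synthase of the ARO3/ARO4 group, CAGL0C01573g, had 252, 250 and 235 CPM in the CAGL0M09955g deletion and 434, 381 and 434 CPM in wild type (-0.76 ± 0.06, adjusted p = 1.44e-15). Homoserine kinase THR1 (CAGL0J00649g) had 131, 123 and 128 CPM in the deletion and 228, 207 and 191 CPM in wild type (-0.71 ± 0.07), and all 5 threonine enzymes were lower, or 3 with total-count scaling. GDH1/GDH3 (CAGL0D00176g) had 258, 292 and 267 CPM in the deletion and 421, 440 and 461 CPM in wild type (-0.70 ± 0.06). The asparagine synthetase gene (CAGL0I10648g, -0.51 ± 0.05) and ILV5 (CAGL0B03047g, -0.49 ± 0.06) were lower too. No arginine enzyme was called among 7 tested, or 3 were higher with total-count scaling. Lysine synthesis had 3 of 5 genes higher and 0 lower, among them LYS9 (CAGL0C03443g), with 59.4, 57.1 and 58.9 CPM in the deletion and 37.7, 39.6 and 41.8 CPM in wild type (0.55 ± 0.11). A gene of the LEU4/LEU9 group (CAGL0G06732g) was higher (0.58 ± 0.10), while the other gene of that group, CAGL0G04741g, was not called. The proline enzyme PRO3 (CAGL0I08283g, 0.57 ± 0.09) was higher too.

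In N. castellii the Scas551.1 deletion lowered 28 of 55 tested members and raised 8 (20.4% and 21.4% of all genes), and the Scas719.24 deletion lowered 8 and raised 10 (11.3% and 14.8%). Shares of members in the second strain were near those of all genes. Total-count scaling gave 14 higher and 12 lower for Scas551.1, with a shift of 0.17 in the median of all genes, and 4 higher and 16 lower for Scas719.24, with a shift of -0.15. The count of higher members for Scas719.24 was 6 without its replicate B or C and 6 by DESeq2, and its lower count was 11 without wild type replicate B. Compared with each other, the Scas551.1 deletion had 5 members higher and 21 lower than the Scas719.24 deletion, where 24.1% of all genes differed, or 15 higher and 4 lower with total-count scaling. The wild type libraries of this species differ from both deletions in mating-type genes (4 of 4 tested alpha genes were lower in either deletion); their part in these counts was not tested.

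Arginine enzymes ran the other way in N. castellii than in S. cerevisiae: 7 of 8 were lower and 0 higher in the Scas551.1 deletion, or 3 lower and 0 higher with total-count scaling. ARG5,6 (NCAS0E03270) had 175, 151 and 168 CPM in the Scas551.1 deletion, 193, 282 and 240 CPM in the Scas719.24 deletion and 347, 336 and 333 CPM in wild type (-1.04 ± 0.11, adjusted p = 3.6e-08, and -0.51 ± 0.10, adjusted p = 0.000432). ARG1 (NCAS0C03630) was lower by 0.25 ± 0.08 on the log2 scale in the Scas551.1 deletion, a call lost without its replicate B (adjusted p = 0.0547) or wild type replicate A (adjusted p = 0.131). Of 3 glutamate genes 2 were higher in each deletion, or 3 in the Scas551.1 deletion and 0 in the Scas719.24 deletion with total-count scaling. GDH1/GDH3 (NCAS0A07680) had 752, 762 and 728 CPM in the Scas551.1 deletion, 433, 519 and 470 CPM in the Scas719.24 deletion and 395, 377 and 430 CPM in wild type (0.90 ± 0.08, adjusted p = 6.22e-09, and 0.24 ± 0.08, adjusted p = 0.0295). A gene of the LEU1 group, NCAS0A01660, was also higher in both, at 64.6, 62.1 and 75.9 CPM and at 52.3, 80.1 and 68.8 CPM, against 34.9, 33.3 and 32.8 CPM in wild type (1.0 ± 0.14 and 0.99 ± 0.13). The other gene of that group, NCAS0A03480, was not called in the Scas551.1 deletion. The 5 threonine enzymes were all lower in the Scas551.1 deletion, HOM2 (NCAS0B03400) furthest (-0.55 ± 0.10), or 2 of 5 under total-count scaling. Aromatic synthesis had 8 of 11 genes lower in the Scas551.1 deletion.

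K. lactis has a single SFP1, and most members were lower without it. Of 40 tested members 31 were lower and 4 higher, where 33.3% of all genes were lower and 33.1% higher, and the median was -0.87 against 0.01 over all genes. Total-count scaling gave 8 higher and 29 lower, with a shift of 0.23 in the median of all genes. GDH1/GDH3 (KLLA0F00594g) had 48, 56 and 50 CPM in the deletion and 544, 566 and 573 CPM in wild type, an 11-fold lower level (-3.45 ± 0.08, adjusted p = 3.01e-16). Asparagine synthetase (KLLA0B10868g) had 322, 336 and 316 CPM in the deletion and 1342, 1333 and 1326 CPM in wild type (-2.04 ± 0.06). ILV2 (KLLA0B12584g) had 206, 172 and 179 CPM in the deletion and 716, 689 and 699 CPM in wild type (-1.91 ± 0.08). These groups were separated by more than their spread.

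Both LEU4/LEU9 genes of K. lactis fell by similar amounts (KLLA0D14201g, -1.59 ± 0.07; KLLA0F23529g, -1.40 ± 0.07), as did both DAHP synthase genes (-1.67 ± 0.08 and -1.32 ± 0.07). All 4 tested histidine enzymes were lower, HIS1 (KLLA0F27489g) furthest (-1.64 ± 0.07), and all 4 tested threonine enzymes. Arginine synthesis had 1 gene higher and 4 lower of 7, or 2 higher and 3 lower with total-count scaling. CPA1 (KLLA0F24882g) had 176, 181 and 210 CPM in the deletion and 109, 110 and 103 CPM in wild type (0.82 ± 0.08, adjusted p = 3.37e-08). LEU1 (KLLA0A04961g) was higher (0.73 ± 0.07), and so was an aromatic transaminase of the ARO8/ARO9 group (KLLA0D11110g), with 341, 341 and 304 CPM in the deletion and 98.2, 112 and 100 CPM in wild type (1.67 ± 0.08), while another gene of that group was lower (KLLA0F10021g, -0.67 ± 0.07).

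In S. pombe 12 of 53 members were lower and 1 higher in the libraries labelled sfp1 deletion (6.82% and 3.19% of all genes). The median was -0.13 against -0.00 over all genes, and total-count scaling gave 6 higher and 9 lower, with a shift of 0.12 in the median of all genes. Without deletion replicate A 8 members were lower, and the 1 higher member was not called without deletion replicate A or B or wild type replicate B. ILV3 (SPAC17G8.06c) had 423, 425 and 408 CPM in the libraries labelled deletion and 877, 884 and 876 CPM in wild type (-1.07 ± 0.07, adjusted p = 3.66e-05). Glutamate synthase GLT1 (SPAPB1E7.07) had 384, 362 and 439 CPM in the libraries labelled deletion and 759, 629 and 700 CPM in wild type (-0.83 ± 0.10). A DAHP synthase (SPAP8A3.07c) had 541, 542 and 566 CPM in the libraries labelled deletion and 909, 943 and 913 CPM in wild type (-0.75 ± 0.07), and HOM2 (SPCC1827.06c) had 481, 468 and 506 CPM in them and 748, 787 and 751 CPM in wild type (-0.66 ± 0.07). Ornithine transcarbamylase ARG3 (SPAC4G9.10, -0.74 ± 0.12) and the serine enzyme of the SER3/SER33 group (SPCC364.07, -0.78 ± 0.08) were lower too. CPA1 (SPBC56F2.09c) was lower by 0.47 ± 0.10 on the log2 scale, a call lost without deletion replicate A (adjusted p = 0.084) and by DESeq2 (adjusted p = 0.0516). No histidine or proline enzyme was called.

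Shares of members and of all genes are set side by side for the 11 mutant comparisons in the plot of shares called. The share of members called lower was well above that of all genes in the sfp1 deletion of S. cerevisiae and in the S. paradoxus, CAGL0M09955g, Scas551.1, K. lactis and S. pombe comparisons under TMM scaling. In the Scas719.24 deletion it was near that of all genes (8 of 55 members, 11.3% of all genes). With total-count scaling the lower members no longer outnumbered the higher ones in the CAGL0M09955g deletion (16 higher, 15 lower) and the Scas551.1 deletion (14 higher, 12 lower).

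**Figure D3:**
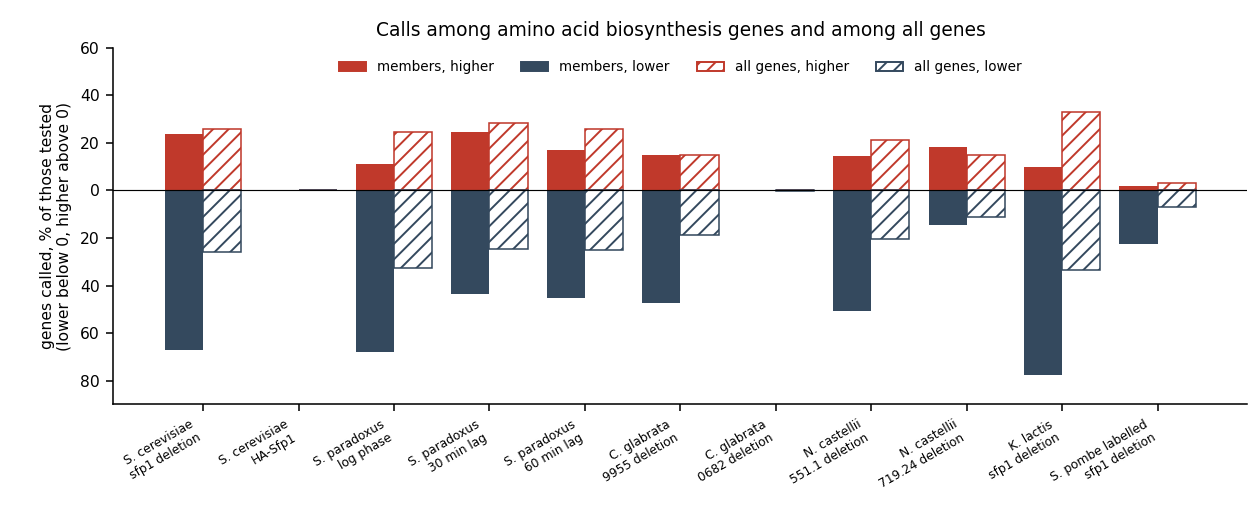
Percent of members and of all tested genes called higher and called lower (adjusted p below 0.05, edgeR) in each of the 11 mutant-over-wild-type comparisons. Members exceed all genes mainly among the lower calls, and no member is called with the HA tag or in the CAGL0D00682g deletion.

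The members fell into 49 orthologous groups, which allowed the 6 log-phase comparisons to be laid side by side (the CAGL0M09955g and Scas551.1 deletions for the species with a pair of paralogs). A group was counted as lower in a species when all its genes in that species' count table were called lower. Groups were counted as higher in the same way. In S. cerevisiae only the members of a group were counted. GDH3 (0.72 ± 0.14) and ARO9 (2.31 ± 0.08), both higher there, were thus left out of the GDH1 and ARO8 groups. Asparagine synthetase and HOM2 were lower in 6 of 6 species. THR4, HOM3, ARO1 and ILV5 were lower in 5 of 6, and ILV1 and ILV3 in 5 of the 5 species that had the gene. In all, 8 groups were lower in at least 5 species and 18 in at least 4, among them the 5 threonine groups. Of all 4464 orthologous groups with a S. cerevisiae gene, 5.40% were lower in at least 5 species and 10.1% in at least 4. These shares were not limited to groups with genes in that many species, and a group with fewer cannot reach the count. LYS1 and LYS20/LYS21 were lower in 0 species, as were 2230 of all 4464 groups. ARG1, CPA1, HIS5, LYS1 and LYS9 were among the 6 groups higher in at least 2 species, against 1073 of all 4464 groups. These counts are under TMM scaling. With total-count scaling threonine synthesis had 4 of 5 genes lower in S. cerevisiae, 4 of 5 in S. paradoxus, 3 of 5 in C. glabrata, 2 of 5 in N. castellii, 4 of 4 in K. lactis and 1 of 5 in S. pombe, and the asparagine synthetase gene was not called in N. castellii or S. pombe.

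Single groups took different directions between species. CPA1 was higher in S. cerevisiae, S. paradoxus and K. lactis, lower in S. pombe, and not called in C. glabrata or N. castellii. GDH1, or the gene of the GDH1/GDH3 group in other species, was lower in S. cerevisiae, C. glabrata and K. lactis, higher in the Scas551.1 deletion of N. castellii, and not called in S. paradoxus or S. pombe. The S. paradoxus gene of that group is not assigned to GDH1 or GDH3. HOM2 was lower in all 6. Differences between species were tested in joint fits of the orthologous groups with 1 gene in each species, set against S. cerevisiae. Of 37 such members of S. paradoxus 4 had a higher and 17 a lower effect than in S. cerevisiae (29.5% of all groups differed), and of 28 in K. lactis 7 and 18 (53.4%). Of 40 in C. glabrata 20 had a higher and 11 a lower effect for CAGL0M09955g (36.8%), and 23 and 7 for CAGL0D00682g (34.6%). Of 37 in N. castellii 16 and 11 differed for Scas551.1 (42.7%) and 18 and 10 for Scas719.24 (41.2%), and of 37 in S. pombe 12 and 11 (36.4%). With total-count scaling the split was 14 higher and 13 lower for CAGL0D00682g and 12 and 12 for Scas719.24. These tests share the S. cerevisiae libraries, and species also differ in strain background.

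**Figure D4:**
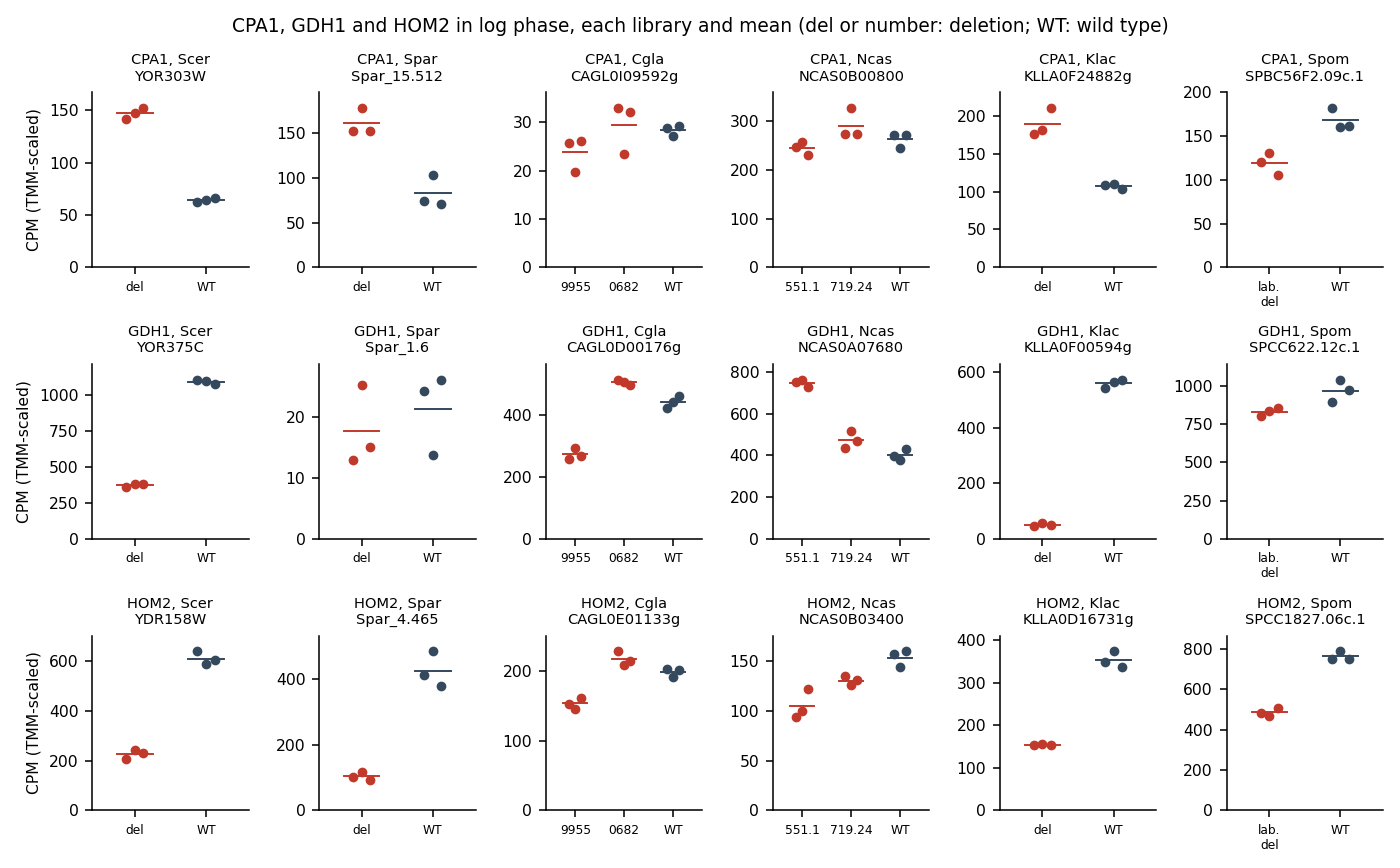
CPM of CPA1, GDH1 and HOM2 in the log-phase libraries of 6 species, mutants to the left of wild type. Outside S. cerevisiae, GDH1 stands for the gene of the GDH1/GDH3 group, which in S. paradoxus is not assigned to either. Points are the 3 libraries and short lines their mean, with a separate linear axis for each panel. GDH1 falls to 48 to 56 CPM in the K. lactis deletion (544 to 573 CPM in wild type) and is at 728 to 762 CPM in the Scas551.1 deletion of N. castellii (377 to 430 CPM in wild type).

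The same lists of further enzymes and regulators were counted in the other species. Of all genes 24.8% were higher and 32.6% lower in the S. paradoxus deletion in log phase, 15.0% and 18.6% in the CAGL0M09955g deletion, 21.4% and 20.4% in the Scas551.1 deletion, 14.8% and 11.3% in the Scas719.24 deletion, 33.1% and 33.3% in K. lactis, and 3.19% and 6.82% in S. pombe. The lists are short, and nothing is read from counts this small. Of the further enzymes 6 were higher and 3 lower of 17 in the S. paradoxus deletion in log phase, 5 and 3 of 21 in the CAGL0M09955g deletion, 3 and 5 of 20 in the Scas551.1 deletion, 2 and 5 of 20 in the Scas719.24 deletion, 5 and 4 of 14 in K. lactis, and 1 and 2 of 16 in S. pombe. Of the regulators 2 were higher and 6 lower of 15 in S. paradoxus in log phase, 3 and 6 of 16 in the CAGL0M09955g deletion, 1 and 5 of 18 in the Scas551.1 deletion, 0 and 2 of 18 in the Scas719.24 deletion, 4 and 4 of 14 in K. lactis and 0 and 1 of 7 in S. pombe. GCN4 RNA was slightly lower in the CAGL0M09955g deletion (-0.20 ± 0.06), the Scas551.1 deletion (-0.43 ± 0.07) and K. lactis (-0.22 ± 0.06), and was not called in S. paradoxus in log phase (-0.13 ± 0.09).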

How the data were processed

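RNA of 58 samples was described in the labels, and 57 of them, in 19 groups of 3 replicates, had a count column and were used. The deposited values are expected counts per gene, not scaled to library size. The submitters' processing notes name RSEM 1.2.11, Bowtie 1 and edgeR without their roles. The notes give the build ASM294v2, a fission yeast assembly, for all samples, and no source used here gives a build for the other 5 species. Libraries were paired-end with reads of 25 bases, per the labels' protocols.

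The expected counts were rounded to whole numbers. Genes passing edgeR's filterByExpr were fitted per species, all groups together and without a replicate term, by the quasi-likelihood test of edgeR 4.0.16 (R 4.3.3, limma 3.58.1) with TMM factors. p-values were adjusted by Benjamini-Hochberg over all genes tested, with a threshold of 0.05, and the standard error was the log2 fold change divided by the root of the F statistic. Differences between times, and between species in joint fits of orthologous groups with 1 gene in each, were interaction terms. Alternatives were RLE factors, total counts alone, DESeq2 1.42.0, no filter, a replicate term, only the 2 groups compared, and leaving out each library. The edgeR test of 2 groups was tried on counts simulated from the S. cerevisiae libraries. The interaction terms, the joint fits and DESeq2 were not tried in this way.

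Named members were, in each comparison and pathway, the called one with the largest change among those whose log2 CPM averaged 4 or more and whose groups did not overlap, the 5 largest rises and falls, a panel of 19 genes, and members with opposite effects in a tested difference; other members are named as examples chosen after their values were seen. The members and lists were chosen with earlier results of these data known. Replicate letters were checked for pairing: the correlation of same-lettered deviations lay between -0.112 and 0.0864, so the letters were not treated as pairs. Motifs were counted in the R64 genome with Python 3.11.15. One member is not reported by itself here; it stays in the counts.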

Additional observations from a re-analysis of the deposited data

Results flagged for a closer look

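In S. paradoxus the difference between deletion and wild type changed between 30 min and log phase for 27 of 53 members (31.8% of all genes). It changed for 19 members between 60 min and log phase (25.2%) and for 14 between 60 and 30 min (15.3%). Wild type expressed STE2 in log phase and STE3 at the lag times, so time and wild type mating-type expression cannot be told apart in the differences from log phase. Members called in opposite directions at the times compared are given here. Spar_14.232 of the LEU4/LEU9 group had an effect of 0.36 at 30 min and -0.47 in log phase, a difference of 0.83 ± 0.16 (adjusted p = 0.000145, edgeR), and 0.68 at 60 min, a difference from log phase of 1.15 ± 0.17 (adjusted p = 4.97e-06). LEU1 (Spar_7.291) differed by 0.91 ± 0.15 between 30 min and log phase and by 1.84 ± 0.14 between 60 min and log phase. ARG5,6 (Spar_5.219), an enzyme of ornithine synthesis, had effects of 0.34 at 30 min and -0.29 in log phase (difference 0.62 ± 0.15, adjusted p = 0.00123). SER1 (Spar_15.381), the phosphoserine transaminase, had -0.58 at 60 min and 0.48 at 30 min (difference -1.05 ± 0.26, adjusted p = 0.00447).

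Between species, 21 of 37 tested members differed from S. cerevisiae in S. paradoxus, where 29.5% of all groups differed. The counts were 31 of 40 (36.8%) in the CAGL0M09955g deletion and 30 of 40 (34.6%) in the CAGL0D00682g deletion. In N. castellii they were 27 of 37 (42.7%) in the Scas551.1 deletion and 28 of 37 (41.2%) in the Scas719.24 deletion. K. lactis had 25 of 28 (53.4%) and S. pombe 23 of 37 (36.4%). In S. paradoxus LYS9 had an effect of -0.38, against 0.75 in S. cerevisiae (difference -1.04 ± 0.16), and ARG5,6 had -0.29 against 0.48 (difference -0.66 ± 0.13). In the CAGL0M09955g deletion HIS1 had 0.34 against -0.95 (difference 1.28 ± 0.13), PRO3 0.57 against -0.25 (0.82 ± 0.10) and TRP4 0.26 against -0.63 (0.89 ± 0.12).

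In the Scas551.1 deletion of N. castellii ARG1 had -0.25 against 1.16 in S. cerevisiae (difference -1.45 ± 0.15), ARG8 -0.70 against 0.47 (-1.20 ± 0.20), ARG5,6 -1.04 against 0.48 (-1.56 ± 0.12) and ARG3 -0.62 against 1.86 (-2.51 ± 0.40). GLN1 had 0.30 against -0.94 (1.21 ± 0.12). In the Scas719.24 deletion ARG5,6 had -0.51 against 0.48 (-0.99 ± 0.13), while HIS4 had 0.50 against -1.41 (1.92 ± 0.18), GLN1 0.36 against -0.94 (1.30 ± 0.11), LYS4 0.42 against -0.34 (0.75 ± 0.15) and ILV3 0.29 against -1.87 (2.16 ± 0.10).

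In K. lactis LEU1 had 0.73, against -0.63 in S. cerevisiae (difference 1.39 ± 0.08). ARG1 had -0.27 against 1.16 (-1.42 ± 0.14) and ARG3 -1.34 against 1.86 (-3.17 ± 0.35). HIS5 had -0.47 against 0.57 (-1.01 ± 0.12) and HIS7 -0.95 against 0.65 (-1.58 ± 0.11). In the S. pombe libraries labelled deletion CPA1 had -0.47 against 1.19 (-1.69 ± 0.12) and ARG3 -0.74 against 1.86 (-2.64 ± 0.34).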

How the results depend on the processing

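Scaling by total counts alone changed most counts of members. It gave 14 higher and 19 lower in S. paradoxus in log phase, 15 higher at 60 min, 16 higher and 15 lower in the CAGL0M09955g deletion, 14 higher and 12 lower in the Scas551.1 deletion, 4 higher and 16 lower in the Scas719.24 deletion, 8 higher in K. lactis and 6 higher in S. pombe. With it 24 members differed between the 60 and 30 min effects and 21 between the C. glabrata deletions. It also turned YDR035W (ARO3) in S. cerevisiae to 0.05, and in S. paradoxus in log phase Spar_14.232 (LEU4/LEU9) to 0.03, Spar_4.147 (LYS20/LYS21) to 0.02 and Spar_4.676 (PRO1/YHR033W) to 0.14. The count of higher members in S. paradoxus at 30 min was 7 with RLE factors, 7 without the filter and 8 by DESeq2, which also gave 5 higher for CAGL0M09955g and 6 higher for Scas719.24. Leaving out single libraries gave 7 to 12 higher in S. paradoxus at 30 min, 5 to 9 higher for CAGL0M09955g, 6 to 11 higher and 6 to 11 lower for Scas719.24, and 0 to 1 higher and 8 to 14 lower in S. pombe. A replicate block gave 13 higher and 36 lower members in S. cerevisiae and moved no count by over 1.5 times. Across named members, calls were lost in 75 of the leave-one-out fits (909 kept them), 15 by DESeq2 and 4 with the block. With total counts 27 were lost and a further 4 changed sign, while 3 were lost with RLE factors and 3 without the filter. The S. paradoxus lag libraries and S. pombe deletion replicate C hold the fewest counts.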
